A study of Mus musculus with 16 samples.

Results

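The oligoadenylate synthetase family was read on Illumina mouse BeadChips in 4 mammary tumour cell lines from HER2 transgenic mice. Its members were all probes annotated to Oas1a, Oas1b, Oas1g, Oas2, Oas3, Oasl1 and Oasl2, which gave 17 of the 45281 probes for 7 genes. MI6 and MI7 carry d16HER2, a HER2 splice form that lacks an exon, and WTHER2-1 and WTHER2-2 carry full-length WT HER2. All lines are HER2-positive and each was read on 4 arrays, 16 in all, so no line without a HER2 transgene entered. The labels name no mouse strain, promoter or treatment. Whether a line's arrays hold RNA of separate cultures is not stated, so p-values over arrays may measure technical spread only.

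Oligoadenylate synthetases are induced by interferon and sense double-stranded RNA. On binding it, the active members join ATP into 2'-5' linked oligoadenylates (2-5A), which switch on the nuclease RNase L, and RNase L cuts viral and cellular RNA. In the mouse, the single OAS1 gene of humans is represented by a cluster of copies. Oas1a and Oas1g encode active enzymes, whereas the Oas1b protein makes no 2-5A and is known for resistance to flaviviruses in mice. Oas2 and Oas3 encode larger proteins with repeated synthetase units. Oasl1 and Oasl2 carry ubiquitin-like domains. Mouse Oasl2 is an active synthetase, and mouse Oasl1 is known to hold back translation of the interferon regulator Irf7.

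In RefSeq (GRCm38.p6) all 7 genes lie on chromosome 5, with Oasl1 and Oasl2 close to each other and the others in 1 cluster. Oas1b is listed there as a transcribed pseudogene. RefSeq promoter windows were at hand for 5 members. They are shown because every member had a lower mean in the d16HER2 lines, though members parted on some arrays, as the values below show. Each line below gives the 120 bases before the start used for the RefSeq window, 5′ to 3′ on the gene's strand, and capitals mark the interferon-stimulated response element core, GAAA, any 2 bases and GAAA again.
Oas1a, chr5:120907526-120907645, minus strand: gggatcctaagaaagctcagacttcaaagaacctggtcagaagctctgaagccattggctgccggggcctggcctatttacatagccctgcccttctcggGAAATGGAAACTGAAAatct
Oas1g, chr5:120887614-120887733, minus strand: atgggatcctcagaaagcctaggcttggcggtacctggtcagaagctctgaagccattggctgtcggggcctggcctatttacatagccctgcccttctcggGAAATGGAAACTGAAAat
Oas3, chr5:120777660-120777779, minus strand: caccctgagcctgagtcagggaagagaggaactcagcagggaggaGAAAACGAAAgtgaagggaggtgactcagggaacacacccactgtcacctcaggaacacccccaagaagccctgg
Oasl1, chr5:114923120-114923239, plus strand: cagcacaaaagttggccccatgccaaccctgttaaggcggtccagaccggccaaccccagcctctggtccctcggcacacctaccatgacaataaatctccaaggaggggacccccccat
Oasl2, chr5:114896814-114896933, plus strand: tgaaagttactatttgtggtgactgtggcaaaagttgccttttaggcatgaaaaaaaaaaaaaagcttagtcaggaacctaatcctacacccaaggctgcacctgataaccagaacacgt

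Both strands of the whole windows, 250 bases before to 50 after the start, were searched. The Oas1a and Oas1g windows each held 2 matches, which overlap each other, and that of Oas3 held 1. The Oas1a and Oas1g windows were 85.3% identical over 306 aligned columns. This core was not in the windows of Oasl1 and Oasl2. The listed extents of Oas1a, Oas3, Oasl1 and Oasl2 begin within their printed bases, that of Oasl1 already at 114923143. Its window thus lies partly inside the gene, and bases farther upstream were not searched. Of all 32851 RefSeq windows of this length, 3.44% held a match. The letters TTCNNNGAA, the core of the gamma-activated site that STAT dimers bind, occurred once in the Oas1a window, apart from the matches above, in 0 of the other 4, and in 8.30% of all windows. A match describes the letters and is no evidence of binding.

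Median raw intensity ran from 83.5 to 148.7 over the arrays, and 35.8% to 42.4% of probes were detected, meaning a detection p-value against the negative control beads under 0.05. MI6 and MI7 shared BeadChips 1 and 2, WTHER2-2 lay on BeadChips 3 and 4, and WTHER2-1 on 5 and 6, so BeadChip and transgene cannot be told apart. The 2 BeadChip 4 arrays of WTHER2-2, replicates 3 and 4, stood apart from the other 2 arrays of that line. The mean of 7 luminal and general epithelial markers was 11.76 and 11.68 on the BeadChip 3 arrays against 8.52 and 6.73 on those of BeadChip 4, and that of 6 fibroblast markers was 8.29 and 8.49 against 12.35 and 11.79. In the d16HER2 lines the epithelial mean lay between 11.88 and 12.22 and the fibroblast mean between 5.08 and 5.52, and in WTHER2-1 between 10.90 and 11.35 and between 6.71 and 7.68. Of 8 leukocyte markers, Ptprc, Cd3e, Itgam, Lyz2 and Adgre1 were detected on no array and a Siglech probe on 2, whereas Csf1r and Cd14 were detected on all 16. Values without the BeadChip 4 arrays, normalized again, are given beside the results they move most.

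Values below are log2 intensities after background correction and quantile normalization, and differences are on that scale. The mean of the 7 members ran from 5.47 to 6.93 on the d16HER2 arrays. It ran from 8.53 to 10.62 on the WT HER2 arrays, except for 6.29 on WTHER2-2 replicate 4. At single dim probes other WT HER2 arrays also fell within the d16HER2 range without detection. Among them were WTHER2-2 replicate 3 at the dimmest Oasl1 probe (4.99) and the dimmer Oas1b probe (5.44). WTHER2-1 replicate 2 did so at a dim Oas1g probe (4.96). The d16HER2 mean was below the WT HER2 mean at all 17 probes, against 51.2% of all probes. The median difference was -2.00 over the 17 member probes and 0.00 over all probes. At 7 member probes no d16HER2 array was detected, and 4 were detected on all 8, namely 2 of Oas1g and 1 each of Oasl1 and Oasl2.

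**Figure D1:**
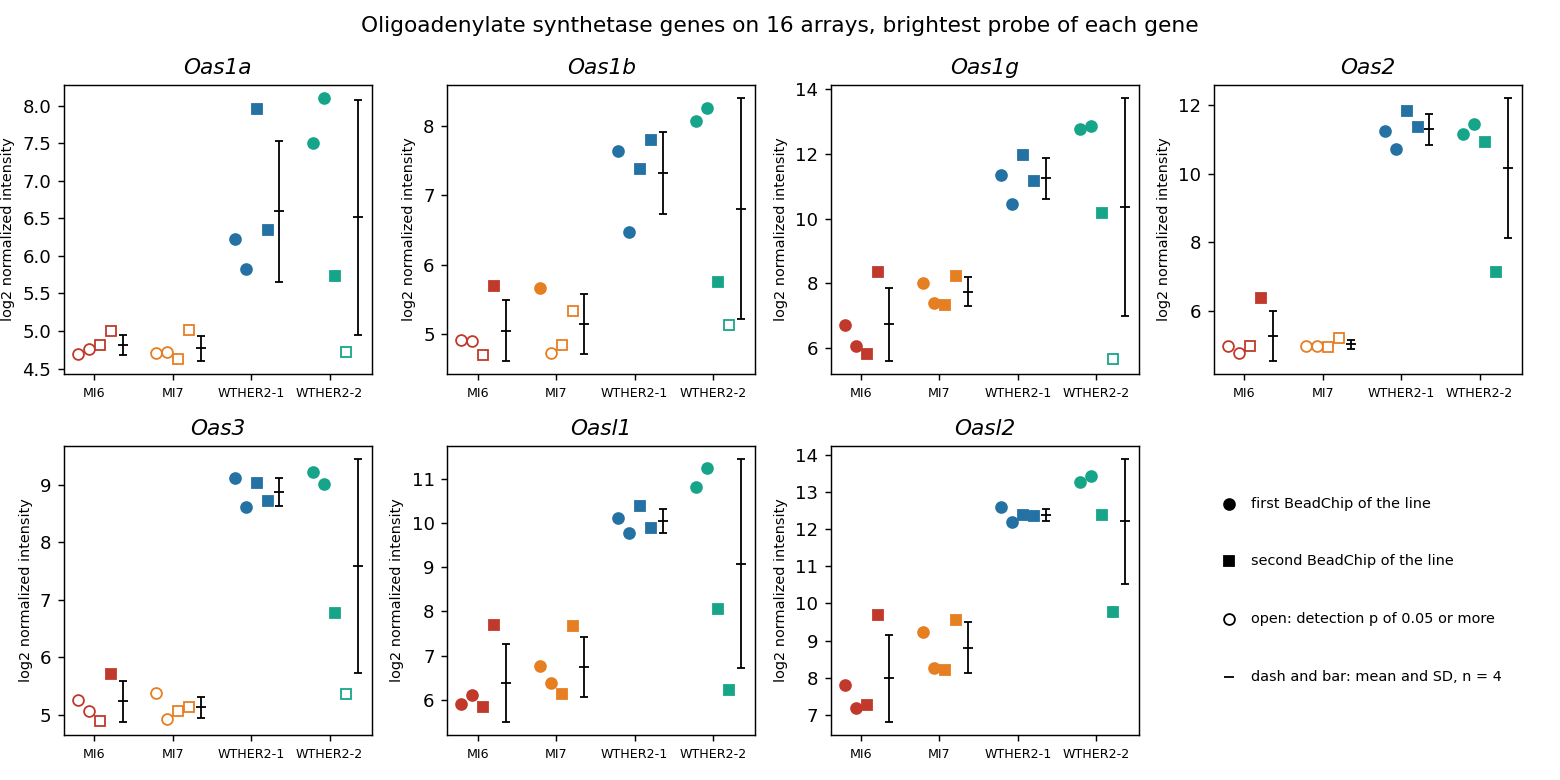
Log2 normalized intensity (vertical axis) of the brightest probe of each gene on each array, by line (horizontal axis); circles and squares are the first and second BeadChip of a line, open symbols arrays without detection, and the dash with its bar the mean and SD of 4 arrays. MI6 and MI7 lie low, WTHER2-1 and the circles of WTHER2-2 lie high, and the squares of WTHER2-2 spread downwards.

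Oas2, with 1 probe, differed most among the members. It measured 4.97, 4.79, 4.98 and 6.37 on MI6 replicates 1 to 4 and 4.98, 4.98, 4.95 and 5.22 on those of MI7. On WTHER2-1 it measured 11.24, 10.73, 11.82 and 11.36, and on WTHER2-2 11.16, 11.46, 10.91 and 7.13. The groups did not overlap, and the lowest WT HER2 array, WTHER2-2 replicate 4, lay above the highest d16HER2 array, MI6 replicate 4, which was the only d16HER2 array with detection. The line means (± SD, n = 4) were 5.28 ± 0.73 for MI6, 5.03 ± 0.12 for MI7, 11.29 ± 0.45 for WTHER2-1 and 10.16 ± 2.04 for WTHER2-2. Against MI7, where no array was detected, the WT HER2 arrays were at least 34.6-fold brighter on average, and at least 52.1-fold without the BeadChip 4 arrays. This bound sets the dim arrays at their own signal or at the lowest signal of any detected probe, whichever is higher. With bulk RNA, fewer expressing cells and less RNA per cell cannot be told apart, here or below.

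Oasl2 was measured above background in every line at its brightest probe. That probe read 7.82, 7.18, 7.27 and 9.69 on MI6 and 9.23, 8.27, 8.20 and 9.56 on MI7. It read 12.58, 12.19, 12.37 and 12.34 on WTHER2-1 and 13.25, 13.42, 12.37 and 9.78 on WTHER2-2. The groups did not overlap, but only just, since WTHER2-2 replicate 4 (9.78) lay next to MI6 replicate 4 (9.69). The mean WT HER2 intensity was 14.8-fold that of the d16HER2 lines. Its other 2 probes differed by -3.03 and -1.85, and the dimmer of them, detected on 0 of 8 d16HER2 arrays, was at least 2.03-fold brighter in the WT HER2 lines (2.85-fold without BeadChip 4). The 3 probes thus differed in the same direction, with the dimmest showing the smallest difference.

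Oasl1 had 3 probes, all tested. The brightest read 5.90, 6.10, 5.84 and 7.70 on MI6, and 6.76, 6.37, 6.13 and 7.68 on MI7. It read 10.11, 9.78, 10.39 and 9.89 on WTHER2-1, and 10.81, 11.25, 8.05 and 6.23 on WTHER2-2. All arrays of WTHER2-1 and 3 of WTHER2-2 lay above every d16HER2 array, and WTHER2-2 replicate 4 lay among them. The other 2 probes differed by -2.79 and -2.00. The first of them was detected on 1 MI6 and 2 MI7 arrays. The dimmer one, detected on 0 of 8 d16HER2 arrays, was at least 2.45-fold brighter in the WT HER2 lines (4.03-fold without BeadChip 4). Without BeadChip 4 the 3 differences were -3.98, -3.82 and -2.94.

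Oas3 was near background in the d16HER2 lines. Its brighter probe read 5.26, 5.06, 4.89 and 5.71 on MI6 and 5.37, 4.92, 5.07 and 5.14 on MI7, with detection on 1 of these 8 arrays. It read 9.12, 8.61, 9.03 and 8.72 on WTHER2-1 and 9.22, 9.02, 6.77 and 5.35 on WTHER2-2. The last of these was not detected and fell within the d16HER2 range. The WT HER2 arrays were on average at least 6.14-fold brighter than those of MI7, and at least 10.4-fold without BeadChip 4. The other Oas3 probe was detected on 3 arrays, all of WTHER2-1, and did not enter the tests.

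The Oas1 cluster genes gave the least uniform readings, since 5 probes of Oas1g disagreed in brightness. The brightest read 6.72, 6.05, 5.81 and 8.33 on MI6, 8.01, 7.40, 7.31 and 8.21 on MI7, 11.35, 10.46, 11.98 and 11.17 on WTHER2-1, and 12.76, 12.85, 10.16 and 5.66 on WTHER2-2. WTHER2-2 thus held both the highest and the lowest of the 16 values, but the lowest was not detected and is background. The second probe followed it, with a difference of -3.56 against -3.57, while the third differed by -0.86 and was detected on 5 arrays, the fourth on 2 and the fifth on none. Oas1a, with 1 probe, was detected on no d16HER2 array and on 7 of 8 WT HER2 arrays. Its line means were 4.81 ± 0.14 (MI6), 4.77 ± 0.17 (MI7), 6.60 ± 0.94 (WTHER2-1) and 6.51 ± 1.56 (WTHER2-2). The WT HER2 lines were at least 1.91-fold brighter, and 2.65-fold without BeadChip 4. The 2 Oas1b probes differed by -1.96 and -1.71, and by -2.69 and -2.35 without BeadChip 4. The first was detected on 1 MI6 and 1 MI7 array, and the second on 0 MI6 arrays and 1 MI7 array. The copies of this cluster are close in sequence, and the files do not say how far a probe of one reads another.

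**Figure D2:**
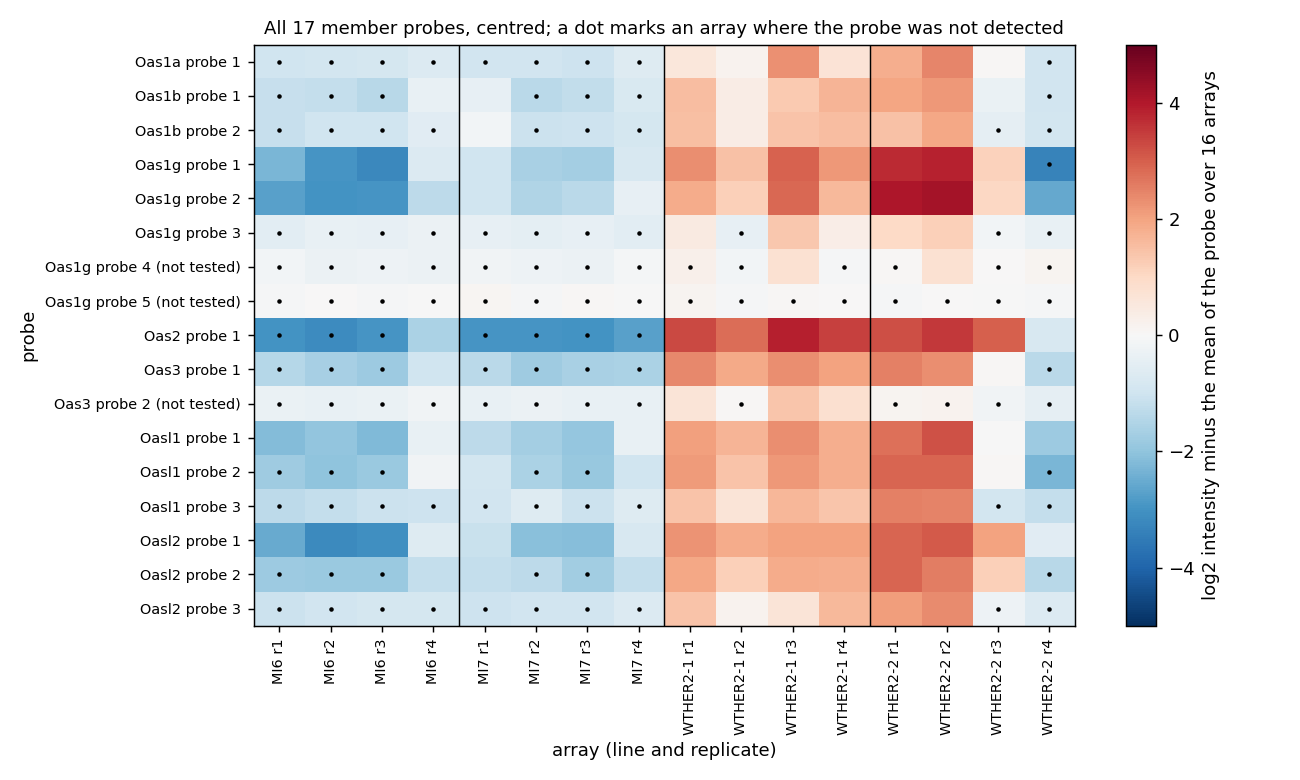
Log2 intensity of each of the 17 probes (rows) on each array (columns) minus the mean of that probe over the 16 arrays, with probes of a gene ordered by brightness and a dot where the probe was not detected. The 2 d16HER2 lines are blue and WTHER2-1 and WTHER2-2 replicates 1 and 2 red at most probes, while the dim probes of Oas1g and Oas3 are pale throughout.

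The transgenes were compared with the line as the replicate, 2 lines against 2, in limma with an adjusted p under 0.05. Of the 17 member probes 14 passed the detection filter, and 10 of these were detected on under 4 d16HER2 arrays, so they entered through the WT HER2 arrays and had to differ. Oas2 fell by 5.57 ± 0.45 (standard error, adjusted p = 0.0429) in the d16HER2 lines, and the 3 Oasl2 probes differed by -3.89 ± 0.34, -3.03 ± 0.27 and -1.85 ± 0.17 (adjusted p = 0.0480, 0.0481 and 0.0491). These were 4 of the 14 tested member probes, against 0.243% of all tested probes that were called lower. Oas2 and the 2 dimmer Oasl2 probes had entered through the WT HER2 arrays, which partly fixes this comparison. Of the 4, only the brightest Oasl2 probe had not. The other 10 missed the threshold, with adjusted p = 0.0517 for Oas1a and 0.109 for the third Oas1g probe at the ends. At an unadjusted p under 0.05 all 14 passed, against 8.88% of all tested probes lower and 18.8% in either direction. The 10 that entered through the WT HER2 arrays partly fix this comparison as well. The 4 calls lie close to the threshold. Leaving out 1 array gave between 0 calls, without WTHER2-1 replicate 2, WTHER2-2 replicate 1 or WTHER2-2 replicate 2, and 11, without WTHER2-2 replicate 4. It gave 1 call without MI6 replicate 4 or MI7 replicate 3, 2 without MI7 replicate 2 or WTHER2-1 replicate 1, and 8 without WTHER2-2 replicate 3. Without either BeadChip of WTHER2-2 the count was 0.

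Across the 4 lines as such, the term separated stands for a probe whose 4 pairwise differences, each d16HER2 line against each WT HER2 line, had 1 sign, an adjusted p under 0.05 and a size of at least 1 in the limma fit to the arrays. By this measure 9 member probes of 6 genes were separated, all lower in the d16HER2 lines, against 1.97% of all tested probes separated as lower and 4.62% in either direction. They were Oas1a, 1 of 2 probes of Oas1b, Oas2, Oas3, 2 of 3 probes of Oasl1 and all 3 of Oasl2. By single pairs, 13 of the 14 member probes were lower in MI6 than in WTHER2-1 (6.54% of all tested probes), 13 in MI6 than in WTHER2-2 (8.47%), 13 in MI7 than in WTHER2-1 (6.28%) and 9 in MI7 than in WTHER2-2 (8.58%). Of the 9 separated probes 7 were detected on 0 to 3 d16HER2 arrays and so had entered through the WT HER2 arrays, which partly fixes the comparison with all tested probes, and the other 2 were the brightest probes of Oasl1 and Oasl2. Oas1g was not separated at any probe. Its brightest probe differed by -4.52 and -3.51 between MI6 or MI7 and WTHER2-1, both past the threshold, but by -2.63 between MI7 and WTHER2-2 (adjusted p = 0.0828). Without the BeadChip 4 arrays of WTHER2-2, 13 member probes were separated, among them Oas1g (-4.79), and without the BeadChip 3 arrays 3 were. The share of all tested probes without a BeadChip is not given here, so these 2 counts are no result about the members in particular. Leaving out 1 array gave 5 without MI6 replicate 3, MI7 replicate 2 or MI7 replicate 3, and 4 without WTHER2-2 replicate 1 or 2. Over all probes, leaving out 1 array gave 838 to 1013 separated in either direction. With BeadChip as a random block 5 were separated, and Oas1a, Oas1b and Oasl1 lost the call. Of the brightest probes, those of Oas2 and Oasl2 were separated under all 32 alternatives, and that of Oas3 under 31. Cell type markers also differed between the transgenes. All 6 tested fibroblast markers had a lower mean in the d16HER2 lines, with a median difference of -3.51. At Col1a2 (5.37), Col1a1 (5.49) and Pdgfrb (4.66), however, WTHER2-1 lay close to the d16HER2 lines, and the difference came from WTHER2-2. Pdgfra (-5.18 ± 0.44, adjusted p = 0.0445) and Col6a1 (-6.12 ± 0.70) were separated, and Pdgfra passed the line-level test. All 7 epithelial markers had a higher mean there, with a median of 1.60, and Epcam (1.52 ± 0.22) was separated. Of 3 basal markers Trp63 (-2.44 ± 0.91) was separated as lower. Without BeadChip 4 the medians were -4.12 over the 5 fibroblast markers tested, 3 of them separated, and 0.66 over the 7 epithelial ones, none of them separated in limma. Col1a2 was then no longer lower in the d16HER2 lines (0.10 ± 0.27). The part of these markers in the difference of the family was not tested. All 8 d16HER2 arrays lay below all 8 WT HER2 arrays at 3 of the 14 probes, Oas2 and 2 of Oasl2, against 4.28% of all tested probes. At the third Oasl2 probe this rests on background, since MI7 replicate 4 and WTHER2-2 replicate 4 both read 5.04 without detection. That probe and Oas2 had entered through the WT HER2 arrays, which partly fixes this comparison too.

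**Figure D3:**
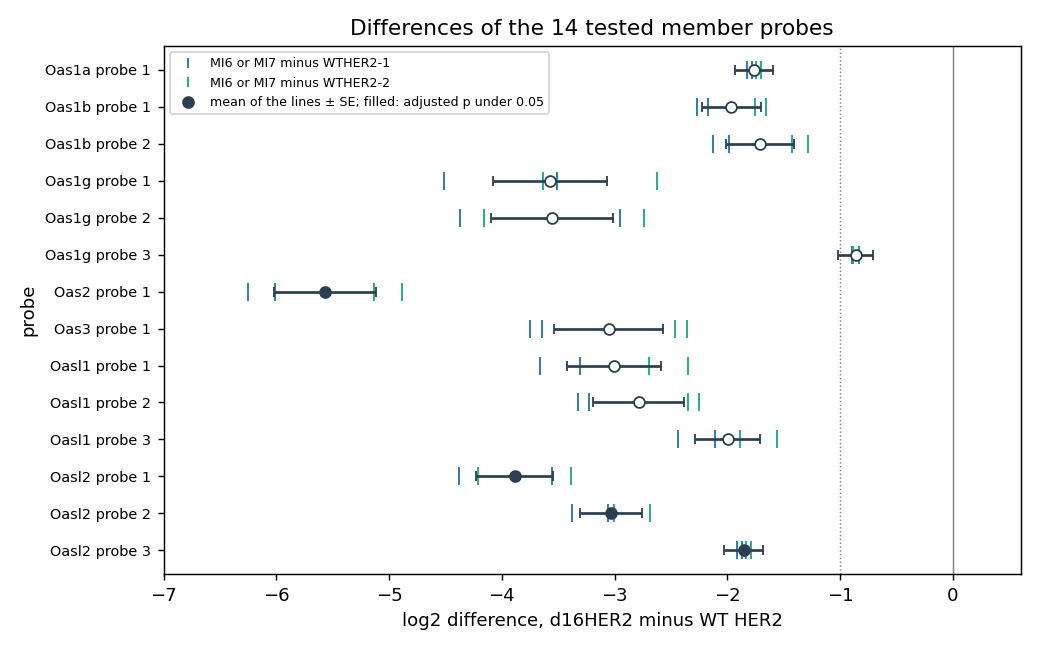
Log2 difference, d16HER2 minus WT HER2 (horizontal axis), of the 14 tested probes (rows); circles with bars are differences of line means ± SE, filled where the adjusted p was under 0.05, and ticks are the 4 single pairs of lines. Every tick lies left of 0, and Oas2 lies farthest left at -5.57.

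Lines of the same transgene were compared in the same fit. Between MI6 and MI7, 0 of the 14 member probes differed in limma, against 0.447% of all tested probes lower and 0.546% higher in MI7, and 0 at an unadjusted p under 0.05, against 8.82%. Of these 14, 10 were detected on under 4 of the 8 d16HER2 arrays, and near background both lines could hardly differ. The 4 probes detected on all 8 had higher means in MI7, by 1.01 ± 1.14 and 1.42 ± 1.06 at Oas1g. The gap was 0.35 ± 0.83 at Oasl1 and 0.83 ± 0.68 at Oasl2 (± standard error). Within both lines, however, arrays differed. Replicate 4 was the highest of the MI6 arrays at the brightest probes of all 7 genes, at 8.33 for Oas1g against 5.81 to 6.72 and 9.69 for Oasl2 against 7.18 to 7.82. At Oas1a no MI6 array was detected, so its order there is background. At Oas1b, Oas2 and Oas3 replicate 4 was the only MI6 array with detection. In MI7, replicates 1 and 4 were the higher ones at Oasl2, 9.23 and 9.56 against 8.20 and 8.27. The mean of 33 other interferon-stimulated genes was 9.52 on MI6 replicate 4 against 8.27 to 8.62 on the other MI6 arrays, and 9.20 on MI7 replicate 4 against 8.32 to 8.81. MI6 and MI7 each had replicates 1 and 2 on BeadChip 1 and the others on BeadChip 2, and no member probe was called between those chips in either line in limma. As 0.00% of all tested probes were called, this says nothing particular of the members. At an unadjusted p under 0.05 it was 0 member probes in both, against 1.60% of all tested probes in MI6 and 2.70% in MI7. Member probes near background could hardly differ here either.

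Between WTHER2-1 and WTHER2-2, 0 member probes differed in limma, against 7.78% of all tested probes lower and 6.68% higher in WTHER2-2, and 0 at an unadjusted p under 0.05, against 42.8%. This line mean hid a split of WTHER2-2 by BeadChip. On its BeadChip 3 arrays alone, WTHER2-2 lay above WTHER2-1 at 6 of 14 member probes and below it at 0, against 8.27% and 7.94% of all tested probes. They included the brightest Oas1g probe (1.55 ± 0.55) and Oas1a (1.22 ± 0.41), whereas Oas2 (0.02 ± 0.38) and Oas3 (0.25 ± 0.24) did not pass. On its BeadChip 4 arrays alone it lay below WTHER2-1 at 12 of 13 tested member probes and above it at 0, against 12.8% and 9.83% of all tested probes, with -3.34 ± 0.92 for the brightest Oas1g probe, -2.82 ± 0.33 for Oas3 and -2.27 ± 0.71 for Oas2. Some of these probes entered mainly through WTHER2-1, which partly fixes this comparison. Oas1a and the third probes of Oasl1 and Oasl2 were detected on 0 d16HER2 arrays and on all 4 of WTHER2-1.

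Within WTHER2-2, members fell from BeadChip 3 to BeadChip 4. In a fit of 8 line-by-chip groups, 12 of the 14 tested member probes were lower on BeadChip 4 and 0 higher, against 9.78% and 7.45% of all tested probes. As 10 of the 14 entered through the WT HER2 arrays, those of BeadChip 3 among them, this comparison is partly fixed. The changes were -4.89 at the brightest Oas1g probe, -3.89 at that of Oasl1 and -3.06 at that of Oas3. Oas2 (-2.29, adjusted p = 0.0646) and the brightest Oasl2 probe (-2.26, adjusted p = 0.0584) did not pass. The 2 arrays of BeadChip 4 were not alike. On replicate 3 Oas2 read 10.91, close to the 11.16 and 11.46 of BeadChip 3, while Oas3 read 6.77 against 9.22 and 9.02, and on replicate 4 every member was lower than on replicate 3 at its brightest probe. Replicate 4 also had the lowest share of detected probes of all arrays, 35.8%. The epithelial marker mean was lower and the fibroblast mean higher on these 2 arrays, as given above, and the part of these shifts in the fall of the members was not tested. Between the BeadChips of WTHER2-1, 0 member probes and 0.00% of all tested probes were called in limma, and 2 of the 14 member probes had an unadjusted p under 0.05, against 4.80%.

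**Figure D4:**
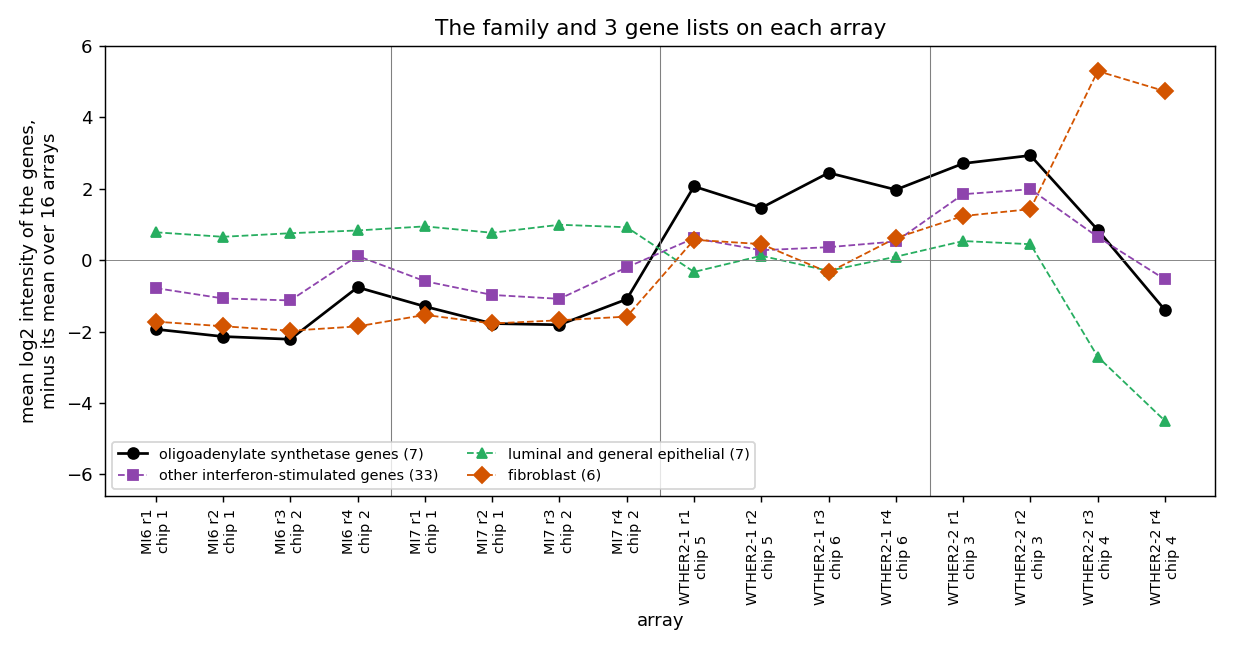
Mean log2 intensity of the 7 members, 33 other interferon-stimulated genes, 7 epithelial and 6 fibroblast markers on each array (horizontal axis), each minus its mean over the 16 arrays (vertical axis). The members lie below 0 on all MI6 and MI7 arrays and above 0 on all others but WTHER2-2 replicate 4, and on WTHER2-2 replicates 3 and 4 the epithelial mean drops while the fibroblast mean climbs.

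Around the family, each gene is represented by its brightest tested probe. Genes that handle 2-5A after its synthesis did not pass. Abce1, which inhibits RNase L, differed by -0.33 ± 0.25, the phosphodiesterase Pde12 by 0.46 ± 0.25 and Akap7, whose protein also cleaves 2-5A, by -0.19 ± 0.44 (adjusted p = 0.538, 0.403 and 0.866). RNase L itself was not analysed here. Among 5 other Oas1 copies, Oas1e, Oas1f and Oas1h were detected on no array, and Oas1c (-0.44 ± 0.31) and Oas1d (-0.99 ± 0.43) did not pass the test or the separation criterion, though Oas1d (-1.56 ± 0.21) was separated without BeadChip 4.

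Of 33 other interferon-stimulated genes 32 had a lower mean in the d16HER2 lines, 9 were separated as lower and 0 as higher, and the median difference was -1.43. Without BeadChip 4 all 33 had a lower mean, 15 were separated, 0 passed the line-level test in limma, and the median was -1.93. They included the secreted Lgals3bp (-3.59 ± 0.88), the ubiquitin-like modifier Isg15 (-2.90 ± 0.23), the GTPase Gbp3 (-2.75 ± 0.23) and the virus tether Bst2 (-2.59 ± 0.56), and Isg15 and Gbp3 were the 2 of the list past the line-level test (adjusted p = 0.0408 and 0.0436). Among 16 interferon receptor and signalling genes 2 were separated, both lower. They were Usp18, which trims Isg15 from proteins and restrains the type I interferon receptor (-2.83 ± 0.20), and Socs3, a cytokine signalling suppressor (-2.58 ± 0.28). Of 6 cGAS and STING pathway genes the DNA sensor Cgas was separated (-2.25 ± 0.38). Of 9 double-stranded RNA sensor genes 0 were separated in limma, with Dhx58 at -1.73 ± 0.50 and Trim25 at -1.70 ± 0.55, while 4 had an unadjusted line-level p under 0.05. Without BeadChip 4, 2 of the sensor genes (Dhx58 and Ddx58) and 4 of 15 signalling genes (Usp18, Socs3, Irf7 and Stat2) were separated. Ddx58 and Stat2 are named here after their values were seen.

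Among 9 interferon ligand genes on the array, 2 were tested. Ifnb1, which encodes interferon beta, was detected on 0 of 8 d16HER2 and 5 of 8 WT HER2 arrays, and its line means were 4.67 ± 0.051 (MI6), 4.81 ± 0.18 (MI7), 5.92 ± 0.42 (WTHER2-1) and 6.40 ± 1.88 (WTHER2-2). It was at least 1.46-fold brighter in the WT HER2 lines, but was not separated (line-level adjusted p = 0.0967). Without BeadChip 4 it was at least 2.02-fold brighter and was separated. Within WTHER2-2 it fell by 3.20 from BeadChip 3 to BeadChip 4. Ifna1 differed by 0.03 ± 0.22.

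Among 10724 genes the profiles nearest to that of the family over the 16 arrays, by the root mean square distance between centred log2 values, were Isg15 (0.403), Gbp3 (0.431), Usp18 (0.514), the sodium, calcium and potassium exchanger gene Slc24a3 (0.515), the actin bundler Fscn1 (0.554), the galectin Lgals9 (0.625), the GTPase Gbp7 (0.631) and Irf7 (0.646). The distance of the members themselves to their mean ran from 0.342 for Oasl1 and 0.380 for Oas3 to 1.23 for Oas2. Oas1g (0.715), Oas1b (0.760), Oas1a (0.912) and Oas2 were farther from the family mean than these 8 genes, which were picked as the nearest of 10724. The values were not scaled, so the distance also grows where a gene differs in size but not in direction. Irf7 differed by -2.84 ± 0.43 and was not separated, but was (-3.96 ± 0.47) without BeadChip 4. RefSeq windows were at hand for 7 of the 8, and 4 of these held the response element core. Of the genes tested, 3.64% of 8688 with a window held it, against 11.5% of the 200 separated as lower in the d16HER2 lines and 1.61% of the 249 separated as higher, given as a description with no test. The 200 include the members Oas1a and Oas3, which held it, and Oasl1 and Oasl2, which did not. This share is therefore not independent of the members.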

How the data were processed

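Per the file headers, the deposited table holds a raw average intensity and a detection p-value for each probe and array. The submitters' processing notes name BeadStudio without a version. The authors also deposited a normalized intensity table on the linear scale, used as an alternative only. In R 4.3.3 with limma 3.58.1 and statmod 1.5.0, intensities were background-corrected with normexp from the detection p-values (offset 16), quantile-normalized and put on the log2 scale, which pulls differences of dim probes towards 0. Probes with a detection p under 0.05 on at least 4 of the 16 arrays were tested, 20152 of 45281. P-values were adjusted by Benjamini-Hochberg over all of them. The fits were run on simulated data with normal noise. These had no detection floor and no BeadChip effect, so how the fits behave with those was not tested. The probe annotation gave 34885 probes 1 symbol, 18 several and 10378 none, and 34807 of the first matched a RefSeq gene by gene ID (GRCm38.p6, used for names, neighbours and promoters).

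Named genes were the members, the measured genes of the lists on 2-5A turnover and Oas1 paralogs, up to 4 separated genes of each other list (or the 2 with the largest difference), and the 8 genes nearest in profile. Members and lists were chosen with earlier results of these data known. Alternatives covered background, normalization, filter, probe choice, variance trend, BeadChip block, and leaving out arrays or lines. Precision is limited by the number of arrays. Replicates were numbered in accession order, which pairs nothing.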

Additional observations from a re-analysis of the deposited data

Results flagged for a closer look

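Within each line of 4 arrays, 1 array was set against the other 3 at each of the 17 probes, which made 68 groups. In 10 of them the gap of 1 array to the nearest other exceeded the 95% critical value of Dixon's test, against 3.4 expected by chance at 1 in 20. MI6 replicate 4 stood above the other MI6 arrays at 5 probes, with 6.37 for Oas2, 7.32 for the second Oas1g probe, 7.70 and 7.11 for 2 Oasl1 probes and 5.69 for the second Oasl2 probe. MI7 replicate 4 stood above at Oas2, with 5.22 against 4.95 to 4.98, but none of these 4 arrays was detected, so the values are background. WTHER2-2 replicate 4 stood below at Oas2, with 7.13 against 10.91 to 11.46, and WTHER2-2 replicate 2 above at the fourth Oas1g probe, with 5.83, as the only detected array of that line. WTHER2-1 replicate 2 stood below at the second probe of Oas1b, with 6.26, and at that of Oasl2, with 8.05. These probes share arrays, so their flags are not independent.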

How the results depend on the processing

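Each of the 14 tested probes kept a lower mean in the d16HER2 lines under every alternative that tested it. The counts past the thresholds moved more. For the line-level test the 4 member calls became 2 with a normexp offset of 50, 0 with median scaling, 1 with 1 probe a gene, 0 without either BeadChip of WTHER2-2 and without MI6 or MI7, 9 without WTHER2-1 and 12 without WTHER2-2. Over all probes its 126 calls became 53 with 1 probe a gene, 0 without either of these BeadChips, MI6 or MI7, 4412 without WTHER2-1 and 2529 without WTHER2-2. The 9 separated member probes became 5 with BeadChip as a random block (within-chip correlation 0.291), 3 without BeadChip 3 of WTHER2-2, 5 without MI6 and 4 without WTHER2-1. Over all probes the 932 separated became 609 with no background correction, 605 in the authors' normalized table, 588 with 1 probe a gene, 2693 without WTHER2-1 and 2214 without WTHER2-2. WTHER2-1 and WTHER2-2 differed at 0 member probes, but at 12 without BeadChip 3 and 6 without BeadChip 4 of WTHER2-2. The fall within WTHER2-2 covered 5 genes with 1 probe a gene, against 12 probes. Leaving out 1 array gave 0 to 11 member and 56 to 254 overall line-level calls, 4 to 13 member and 838 to 1013 overall separated probes, 0 to 1 between the WT HER2 lines, 10 to 14 between BeadChips of WTHER2-2 and 0 to 1 between those of the other lines. Without a line, the line-level test had 1 line in a group, so its spread came from the 2 lines of the other group alone. Separation then needed fewer pairs of lines to pass. Counts without a line are therefore not comparable with the main ones. The cause of the other shifts was not tested. MI6 and MI7 shared BeadChips 1 and 2, and with BeadChip as a fixed block 0 member probes differed between them in limma, as without it. Most of these probes lay near background in both lines. The labels carry no replicate numbers, so no block by replicate number was fitted. The gene lists and at-least folds without BeadChip 4 were an alternative chosen after seeing the data.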
